A study of Mus musculus with 56 samples.

Results

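The NMDA receptor subunits are the products of 7 genes, Grin1, Grin2a, Grin2b, Grin2c, Grin2d, Grin3a and Grin3b, and were followed here on 56 Affymetrix arrays of cultured mouse cortical neurons. The members were every probe set that the array annotation assigns to exactly 1 of these gene symbols, which gave 26 of 79697 such probe sets on 3 array types and 6 of 23600 genes. Grin1 was not analysed here. On the earlier gene-level arrays Grin3b shared its 2 probe sets with Tmem259, and these were left out.

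NMDA receptors are glutamate-gated ion channels that let calcium into the postsynaptic neuron and are known for their part in synaptic plasticity. Each channel is built around the obligatory glycine-binding subunit encoded by Grin1 and takes its glutamate-binding subunits from the Grin2 genes. In the cortex Grin2b is the main Grin2 gene before and around birth, and Grin2a rises as synapses mature. Grin2d is found in the embryonic brain and in interneurons, Grin2c is best known from cerebellum, and the Grin3 genes encode glycine-binding subunits that lower calcium entry.

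The neurons came from the cortex of C57BL6 embryos, taken between embryonic days 13 and 15. Drug or vehicle was given on day 7 in vitro, and RNA was taken 24 or 72 h later. The 3' arrays held topotecan at 300 nM with its vehicle and ICRF-193 at 3 µM with its own vehicle, 3 arrays each. On the later gene-level arrays were 6 of topotecan (1 µM) and 6 of its vehicle. A second experiment set irinotecan (10 µM, 3 arrays), 24 h of topotecan and 24 h of topotecan with washout (1 array each) against 2 shared vehicle arrays. Knockdown was represented by 3 arrays each of a control shRNA, a Top1 shRNA and a Top2b shRNA. DRB (100 µM) and its vehicle had 1 array each, as did the oxidants hydrogen peroxide (100 µM) and paraquat (10 µM), which shared 2 vehicle arrays. A topotecan dose series made up the earlier gene-level arrays: 3 vehicle arrays, 2 arrays of the 300 nM dose and a single array of each of the doses 3, 30, 150, 500 and 1000 nM. Topotecan and irinotecan trap DNA topoisomerase I on DNA, ICRF-193 blocks topoisomerase II and DRB inhibits transcription elongation. The labels give no hours for the arrays other than those named for 24 h, and no mutation or transgene for any group. The shRNA sequences and the way they entered the cells were not given in the sources used here.

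All values are log2 of the deposited intensity of a probe set. A change is the difference of group means on that scale from limma, with its standard error (SE) and a p-value adjusted by Benjamini-Hochberg over all probe sets tested; a probe set was called at an adjusted p under 0.05. Only probe sets whose mean over all arrays of the type reached a brightness limit were tested. The limit was 6.39 on the 3' arrays, 4.96 on the later and 6.08 on the earlier gene-level arrays. Of the members, 6 of 12 probe sets (4 genes), 5 of 9 (4 genes) and 3 of 5 (3 genes) passed it. Levels of different probe sets cannot be compared, so only changes are set side by side between genes. Nothing in the labels says that replicates came from separate cultures, and the p-values then reflect array-to-array spread alone, which may be technical.

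Several sets of arrays were deposited on different levels. Mean intensity was 571 to 577.3 on the ICRF-193 arrays and 682.3 to 698.3 on the topotecan 3' arrays, and 177.6 to 180.3 on replicate 1 of the shRNA groups against 137.8 to 143.1 on replicates 2 and 3. The labels name no such sets, which were inferred from the values. The comparisons of drug with vehicle were made inside 1 set, and those of the shRNA groups with the set as a term. In the dose series vehicle 1 and 2 correlated at 0.997 with each other and 0.934 with vehicle 3 (Pearson's r across probe sets); the arrays of 3 to 500 nM were closer to vehicle 3 (0.987 to 0.996) and the 1000 nM array closer to vehicle 1 and 2 (0.961). The slope over the dose was fitted on all 10 arrays with no set term. For Grin2a the slope with one is given beside it. Summed astrocyte markers ran from 4601 to 17419 over the 3 vehicle arrays. Oxidant vehicle 1 also stood apart: 16.6% of tested probe sets differed by more than 2-fold between it and oxidant vehicle 2 (Pearson's r across probe sets 0.898), against 0.822% between oxidant vehicle 2 and the DRB vehicle.

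Topotecan at 1 µM lowered Grin2a to 18.7% and Grin2b to 24.5% of their vehicle level, and Grin3a to 67.5%. Of the 5 member probe sets tested, 3 were called lower and 1 higher, where 20.3% of all 14113 probe sets tested were called lower and 18.6% higher. Grin2a had a lowest, median and highest value of 6.96, 7.67 and 7.86 in the 6 vehicle arrays and of 4.81, 4.98 and 5.68 in the 6 topotecan arrays. Every topotecan array lay below every vehicle array, and 2 topotecan arrays were under the brightness limit. The change of Grin2a was -2.42 ± 0.17 (SE), a 5.35-fold fall (limma adjusted p = 1.09e-07).

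Grin2b had a lowest, median and highest value of 9.48, 10.06 and 10.22 with vehicle and of 7.68, 7.91 and 8.26 with topotecan. The groups did not overlap, and all 6 treated arrays stayed far above the brightness limit. Its change was -2.03 ± 0.12 (SE), a 4.08-fold fall (limma adjusted p = 2.07e-08). The other Grin2b probe set of these arrays, 17463801, was under the limit on average and not tested, with a mean of 4.82 ± 0.11 (SD, n = 6) with vehicle and 4.97 ± 0.16 (SD, n = 6) with topotecan.

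Grin3a had a lowest, median and highest value of 6.52, 6.67 and 6.82 with vehicle and of 5.81, 6.12 and 6.38 with topotecan. The groups did not overlap, though the highest topotecan array came close to the lowest vehicle array. The change of Grin3a was -0.57 ± 0.08 (SE), a 1.48-fold fall (limma adjusted p = 0.000117).

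Grin2d was measured by 2 probe sets, which did not move together under topotecan at 1 µM. Probe set 17478028 ran from 5.60 to 5.85 with vehicle and from 5.79 to 6.32 with topotecan, with overlap, and was called higher by 0.32 ± 0.09 (SE, limma adjusted p = 0.0106). Probe set 17490995 ran from 4.84 to 5.27 and from 4.67 to 5.16, also with overlap, and its change of -0.19 ± 0.10 (SE) did not pass (limma adjusted p = 0.138). With the arrays centred on their medians the rise of 17478028 was no longer called (0.23, limma adjusted p = 0.0510) and 17490995 was called lower (-0.29, limma adjusted p = 0.0381). No direction for Grin2d is therefore given.

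**Figure D1:**
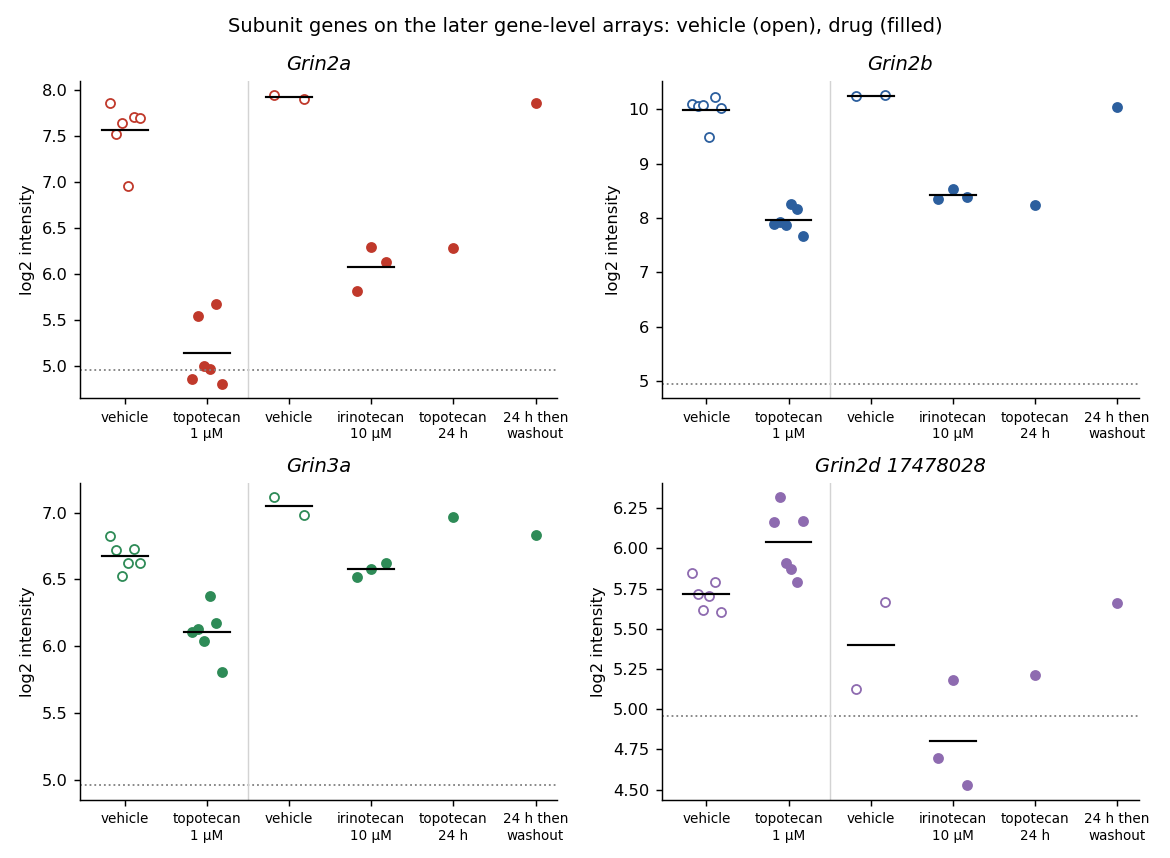
Log2 intensity of Grin2a, Grin2b, Grin3a and Grin2d (probe set 17478028) on each array of topotecan 1 µM and its vehicle (n = 6 each) and, right of the grey line, of irinotecan 10 µM (n = 3), topotecan 24 h and washout (n = 1 each) with their shared vehicle (n = 2). Points are arrays, bars are group means and the dotted line is the brightness limit of 4.96; the y axes do not start at 0. Grin2a and Grin2b lie far below vehicle with both drugs and after 24 h, and near vehicle after washout.

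The subunit genes fell by unequal amounts under topotecan at 1 µM. For 2 genes the difference of their log2 values was taken within each array, so that a shift of a whole array cancels, and compared between the 6 treated and 6 vehicle arrays over all 924 splits. The fall of Grin2a exceeded that of Grin3a by 1.85, and the fall of Grin2b exceeded that of Grin3a by 1.46 (two-sided exact permutation p = 0.00216 for each, adjusted over 6 pairs 0.0026, the smallest the design allows). Grin2a fell further than Grin2b by 0.39 (two-sided exact permutation p = 0.0303, adjusted 0.0303). That last difference did not hold: with 20 added to each intensity before the logarithm it was 0.03 in the other direction (exact permutation, adjusted p = 0.777), and without topotecan replicate 4 it was -0.30 (exact permutation, adjusted p = 0.0519).

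Irinotecan at 10 µM lowered Grin2a, Grin2b and Grin3a. Called lower were 3 of 5 member probe sets and called higher 0, where 11.3% of all probe sets tested were called lower and 15.3% higher. Grin2a read 7.94 and 7.90 in the 2 vehicle arrays and 5.82, 6.29 and 6.14 in the 3 irinotecan arrays. The groups were far apart, and the change was -1.84 ± 0.14 (SE), a 3.58-fold fall (limma adjusted p = 0.000198).

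Grin2b read 10.24 and 10.25 with vehicle and 8.36, 8.52 and 8.38 with irinotecan. The arrays of each group lay close together, and the change was -1.82 ± 0.08 (SE), a 3.54-fold fall (limma adjusted p = 2.95e-05). Grin3a read 7.12 and 6.98 with vehicle and 6.52, 6.58 and 6.63 with irinotecan, without overlap. Its change was -0.48 ± 0.08 (SE, limma adjusted p = 0.00662), and it missed the threshold without vehicle replicate 1 (-0.41, limma adjusted p = 0.0555).

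Both Grin2d probe sets overlapped between irinotecan and vehicle. Probe set 17478028 read 5.12 and 5.67 with vehicle and 4.70, 5.18 and 4.53 with irinotecan, a change of -0.59 ± 0.22 (SE, limma adjusted p = 0.0927). Its vehicle arrays differ by nearly as much as the groups. It was called lower without irinotecan replicate 2 (-0.78), with 20 added before the logarithm (-0.37), with an intensity trend in limma's variance model (-0.59) and with the replicate block (-0.46), at limma adjusted p of 0.0280 to 0.0449. Probe set 17490995 differed by -0.09 ± 0.13 (SE, limma adjusted p = 0.656).

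On the 3' arrays, topotecan at 300 nM lowered Grin2b on both probe sets tested, and neither Grin3a, Grin2d nor Grin3b passed the test. That was 2 of 6 member probe sets called lower and 0 higher, against 3.21% lower and 1.11% higher of all 20975 probe sets tested. Probe set 1457003_at of Grin2b read 10.96, 11.46 and 11.58 in vehicle replicates 1 to 3 and 9.44, 8.97 and 8.57 in topotecan replicates 1 to 3. The nearest arrays of the 2 groups were still well apart, and the change was -2.34 ± 0.25 (SE), a 5.08-fold fall (limma adjusted p = 0.00488).

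Probe set 1442370_at of Grin2b read 10.44, 11.09 and 11.37 with vehicle and 9.11, 8.82 and 8.29 with topotecan. Again no array overlapped, and the change was -2.23 ± 0.29 (SE), a 4.68-fold fall (limma adjusted p = 0.0095, and 0.0510 without vehicle replicate 2). Both remaining Grin2b probe sets were under the brightness limit and showed no such step: 1422223_at had means of 5.79 ± 0.16 with vehicle and 5.71 ± 0.13 with topotecan (SD, n = 3 each), and 1431700_at of 6.25 ± 0.02 and 6.29 ± 0.21 (SD, n = 3 each).

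The other members on these arrays had wide intervals or no shift at 300 nM. Grin3a probe set 1436575_at read 7.74, 7.62 and 8.51 with vehicle and 8.03, 7.71 and 7.02 with topotecan, and the groups overlapped. Its change was -0.37 with a 95% interval of -1.11 to 0.37 (limma adjusted p = 0.554), and that of 1438866_at was -0.47 with an interval of -1.23 to 0.28 (limma adjusted p = 0.457). These intervals include both 0 and the fall that Grin3a showed at 1 µM, so a fall of that size was neither shown nor excluded here. Grin2d changed by 0.10 ± 0.12 (SE, limma adjusted p = 0.690) and Grin3b, a short gene for a glycine-binding subunit, by -0.01 ± 0.11 (SE, limma adjusted p = 0.978).

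ICRF-193 at 3 µM lowered Grin2b by a smaller step than topotecan did. Again 2 of 6 member probe sets were called lower and 0 higher, against 8.01% lower and 5.85% higher of all probe sets tested. Grin2b probe set 1457003_at read 10.70, 10.64 and 10.44 with vehicle and 10.13, 10.06 and 9.98 with ICRF-193, and 1442370_at read 11.14, 11.09 and 10.80 with vehicle and 10.51, 10.42 and 10.38 with ICRF-193. Neither probe set overlapped between the groups. The changes were -0.53 ± 0.07 (SE, limma adjusted p = 0.00451) and -0.57 ± 0.09 (SE, limma adjusted p = 0.0069), which leave 69.1% and 67.1% of the vehicle level.

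For Grin3a the 2 probe sets changed by -0.16 ± 0.07 (SE, limma adjusted p = 0.167) and -0.22 ± 0.09 (SE, limma adjusted p = 0.157) with ICRF-193. Grin2d probe set 1442328_at read 7.05, 6.95 and 6.98 with vehicle and 7.21, 7.12 and 7.13 with ICRF-193. The groups did not overlap, but the difference of 0.16 ± 0.05 (SE) just missed the threshold (limma adjusted p = 0.0541). With the replicate number as a block it was called higher (limma adjusted p = 0.0311). Grin3b differed by 0.0042 ± 0.052 (SE, limma adjusted p = 0.966).

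Grin2b responded differently to topotecan (300 nM) and to ICRF-193 (3 µM), each taken against its own vehicle. The difference of the changes was -1.81 ± 0.29 (SE, limma adjusted p = 0.00938) for 1457003_at and -1.65 ± 0.33 (SE, limma adjusted p = 0.0255) for 1442370_at, with 2 of 6 member probe sets called in the direction of a deeper fall with topotecan, as were 2.07% of all probe sets (0.853% the other way). The call of 1442370_at was lost without any 1 of the 3 ICRF-193 arrays, any 1 of their 3 vehicle arrays, topotecan replicate 2 or topotecan vehicle replicate 2, with adjusted p between 0.0522 and 0.0820 (limma). For Grin3a the differences of -0.21 and -0.26 had 95% intervals of -1.01 to 0.58 and -1.08 to 0.57, and for Grin2d the difference of -0.06 had an interval of -0.32 to 0.19. With the replicate number as a block within each drug, both Grin2b probe sets lost the call (limma adjusted p = 0.0885 and 0.138). Same-numbered arrays deviated together for ICRF-193 (correlations of 0.175 to 0.315) but not for topotecan at 300 nM (-0.43 to -0.03). Doses of the 2 drugs differ, and the comparison holds for these doses only.

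**Figure D2:**
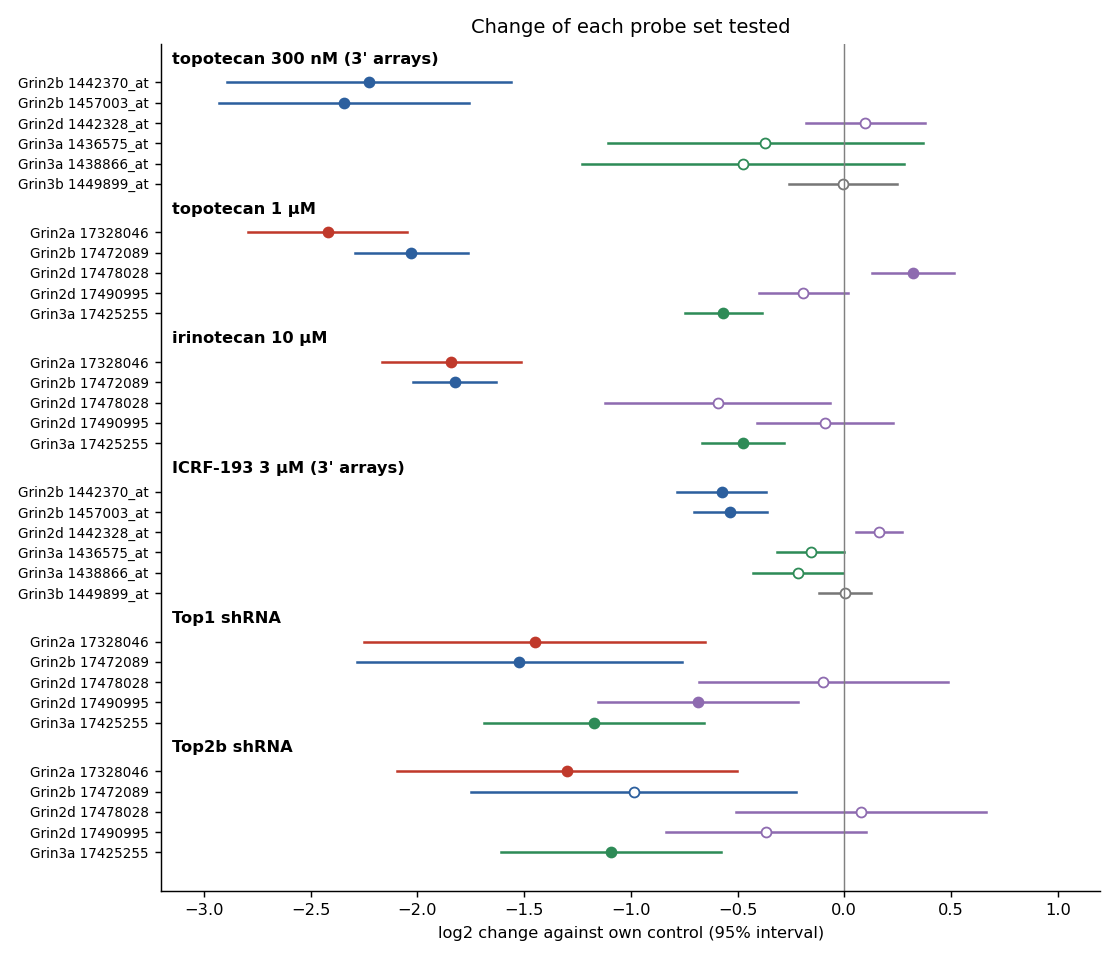
Log2 change against its own control, with the 95% interval from limma, for each member probe set tested in 6 comparisons. Filled points passed the adjusted p of 0.05, open points did not, and colours mark genes. Grin2b lies left of 0 in all 6 comparisons, from -2.34 to -0.53, and of the 3 Grin2d probe sets 1442328_at lies right of 0 in both of its comparisons, 17490995 left of 0 in all 4 of its own and 17478028 on both sides.

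In the dose series Grin2b fell with the dose of topotecan. Only 1 of the 3 member probe sets tested had a slope called, downward, where 2.02% of all 12731 probe sets tested had a falling and 1.47% a rising slope called. Grin2b read 11.20, 11.24 and 11.23 in the 3 vehicle arrays, 11.27 at 3 nM, 11.24 at 30 nM, 11.06 at 150 nM, 10.89 and 10.86 at 300 nM, 10.62 at 500 nM and 9.98 at 1000 nM. All arrays from 150 nM upward lay below all vehicle arrays. The slope was -0.159 ± 0.030 (SE) per step of the dose rank (limma adjusted p = 0.0197). It was not called without the 500 nM array (limma adjusted p = 0.0569) or over log10 of the dose plus 1 (limma adjusted p = 0.0894). It was called without the 1000 nM array and vehicle 1 and 2, and with these as a set term. Over all alternatives the adjusted p ran from 0.000121 to 0.0894 (limma).

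Grin2a read 9.34, 9.33 and 9.84 in the vehicle arrays, 9.77 at 3 nM, 9.73 at 30 nM, 9.41 at 150 nM, 9.42 and 9.28 at 300 nM, 9.11 at 500 nM and 7.92 at 1000 nM. Vehicle 3 was above every other array, and vehicle 1 and 2 lay in the range of the 150 and 300 nM arrays, so that only 300 nM replicate 2, 500 nM and 1000 nM fell below all vehicle arrays. The slope over all 10 arrays of -0.170 ± 0.057 (SE) per rank did not pass (limma adjusted p = 0.139). Without the 1000 nM array and vehicle 1 and 2 it was -0.147 (limma adjusted p = 0.00255), and with these 3 arrays as a set term it was -0.196 (limma adjusted p = 4.57e-05).

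The labels name no sets in the dose series, so each dose was read against the vehicle arrays it correlated with best. For the 1000 nM array these were vehicle 1 and 2, at 0.961, below the 0.997 between these 2 vehicle arrays. The 1000 nM array differed from the mean of vehicle 1 and 2 by -1.42 for Grin2a and by -1.24 for Grin2b. Against vehicle 3, Grin2a differed by -0.43 at 150 nM, -0.49 at 300 nM and -0.73 at 500 nM, and Grin2b by -0.17, -0.36 and -0.61. Each of these rests on 1 or 2 arrays and has no test.

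For Grin3a no fall with the dose was called. It read 7.66, 7.73 and 7.77 with vehicle, 7.73 at 3 nM, 7.79 at 30 nM, 7.81 at 150 nM, 8.16 and 7.98 at 300 nM, 7.91 at 500 nM and 7.56 at 1000 nM. The 2 arrays at 300 nM were the highest and the array at 1000 nM the lowest, and the slope of 0.021 ± 0.025 (SE) per rank did not pass (limma adjusted p = 0.711). Grin2d, under the brightness limit here, ranged from 5.65 to 5.96 over the 10 arrays.

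The same nominal dose gave different values in the 2 experiments. Topotecan at 300 nM went with a Grin2b change of -2.34 and -2.23 on the 3' arrays and with differences of -0.34 and -0.37 from the vehicle mean in the 2 arrays of the dose series. Array type and experiment differ together and the labels give the hours of neither, so the values are set side by side without a test.

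**Figure D3:**
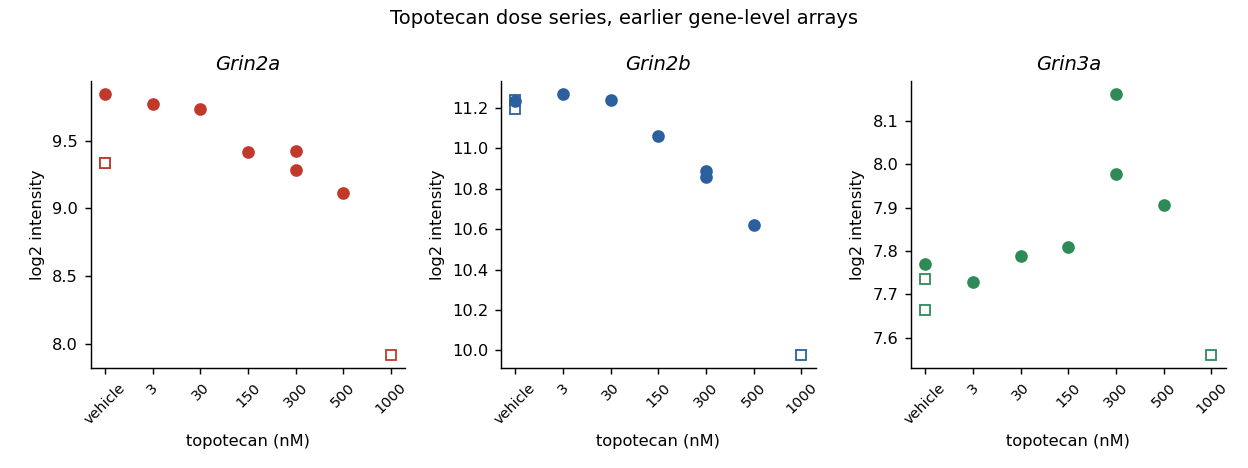
Log2 intensity of Grin2a, Grin2b and Grin3a on the 10 arrays of the topotecan dose series, by dose in nM. Each point is an array, doses are evenly spaced by rank, open squares mark the 1000 nM array and vehicle 1 and 2 (which nearly coincide for Grin2a), and the y axes do not start at 0. Grin2b falls from about 11.2 with vehicle to 9.98 at 1000 nM, and Grin3a shows no fall before 1000 nM.

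After 24 h of topotecan Grin2b and Grin2a read far below both vehicle arrays, and after washout they read close to them. There was 1 array of each, so no test was possible and a probe set past 2-fold is only counted. At 24 h Grin2b read 8.24 and Grin2a 6.28, against vehicle means of 10.24 and 7.92, differences of -2.01 and -1.64. These were the 2 of 5 member probe sets past 2-fold lower, where 2.32% of all probe sets tested were (0.383% higher). Grin3a read 6.97 against 7.05, a difference of -0.08.

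In the array labelled as 24 h followed by washout Grin2b read 10.03 and Grin2a 7.86. Their differences from the vehicle means were -0.21 and -0.06, and that of Grin3a was -0.22; 0 of 5 member probe sets were past 2-fold lower, where 0.0213% of all probe sets tested were (and 0.0213% higher). The vehicle arrays alone spanned 10.24 to 10.25 for Grin2b and 7.90 to 7.94 for Grin2a, so both genes were slightly below them. Grin2d probe set 17478028 differed by -0.18 at 24 h and by 0.26 after washout, and these values depended on the vehicle array used (-0.45 to 0.09, and -0.01 to 0.53).

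The arrays labelled Top1 shRNA had lower Grin2a, Grin2b and Grin3a than control shRNA. The targeted genes themselves moved unevenly: Top1 in the Top1 shRNA arrays differed from the control array of the same number by -1.36, -0.07 and -0.27 (change -0.57 ± 0.24 SE, limma adjusted p = 0.107), and Top2b in the Top2b shRNA arrays by -0.68, -1.52 and -1.37 (change -1.19 ± 0.38 SE, limma adjusted p = 0.0662). Top1 shRNA replicate 1 also differed by -1.04 in Top2b. Neither target passed the test in its own group.

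With Top1 shRNA 4 of 5 member probe sets were called lower and 0 higher, against 14.4% lower and 13.1% higher of all probe sets tested. Grin2a read 7.77, 7.80 and 7.78 in control replicates 1 to 3 and 6.80, 5.77 and 6.43 in Top1 shRNA replicates 1 to 3. Control arrays were nearly equal and the Top1 shRNA arrays lay below them with a wide spread. The change was -1.45 ± 0.35 (SE, limma adjusted p = 0.0167); it missed the threshold without replicate 2 or 3 of either group, with adjusted p from 0.0509 to 0.0539.

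Grin2b read 10.71, 9.99 and 10.12 in control and 9.80, 7.65 and 8.81 with Top1 shRNA. Array 2 was the lowest and array 1 the highest of the Top1 shRNA arrays, and the groups did not overlap. The change was -1.52 ± 0.34 (SE, limma adjusted p = 0.0115). Grin3a read 7.32, 7.11 and 7.11 in control and 6.87, 5.72 and 5.45 with Top1 shRNA, without overlap, and changed by -1.17 ± 0.23 (SE, limma adjusted p = 0.00697). Neither the Grin2b nor the Grin3a call held in every processing alternative. Their highest adjusted p values were 0.0599 and 0.0760 (limma). Of the 2 Grin2d probe sets, 17490995 was called lower (-0.69 ± 0.21 SE, limma adjusted p = 0.037) although its groups overlapped, and it lost the call without replicate 2 or 3 of either group (limma adjusted p from 0.0810 to 0.143); 17478028 changed by -0.10 ± 0.26 (SE, limma adjusted p = 0.810).

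With Top2b shRNA Grin2a and Grin3a were called lower, 2 of 5 member probe sets with 0 higher, against 6.87% lower and 7.36% higher of all probe sets tested. Grin2a read 5.68, 6.81 and 6.98, all below control, and changed by -1.30 ± 0.35 (SE, limma adjusted p = 0.0407). Replicate 1 was the lowest by far. With the replicate number as a block the call was lost (limma adjusted p = 0.0614), as it was without any 1 control array or without Top2b shRNA replicate 1 or 2 (limma adjusted p from 0.0906 to 0.115).

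Grin3a read 6.64, 5.63 and 6.00 with Top2b shRNA and changed by -1.09 ± 0.23 (SE, limma adjusted p = 0.0169). It missed the threshold without control replicate 2 or 3 or Top2b shRNA replicate 1 or 2 (limma adjusted p from 0.0510 to 0.0813). Grin2b read 9.44, 9.09 and 9.33, all below control, and its change of -0.99 ± 0.34 (SE) did not pass (limma adjusted p = 0.0843). Without replicate 1 of all 3 groups, a setting chosen after seeing the data, Grin2a and Grin3a were still called lower with Top2b shRNA (-0.90 and -1.30, limma adjusted p = 0.0306 and 0.00406), and all 4 probe sets called lower with Top1 shRNA were still called.

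Between Top1 and Top2b shRNA no member probe set was called. By limma 0 of 14113 probe sets were called between them (0%), and 1987 had an unadjusted p under 0.05. The Grin2b difference, Top1 minus Top2b shRNA, was -0.54 with a 95% interval of -1.30 to 0.22, that of Grin2a -0.15 with an interval of -0.95 to 0.64 and that of Grin3a -0.08 with an interval of -0.59 to 0.44. A p that misses the threshold does not show equal levels, and the intervals are wide.

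**Figure D4:**
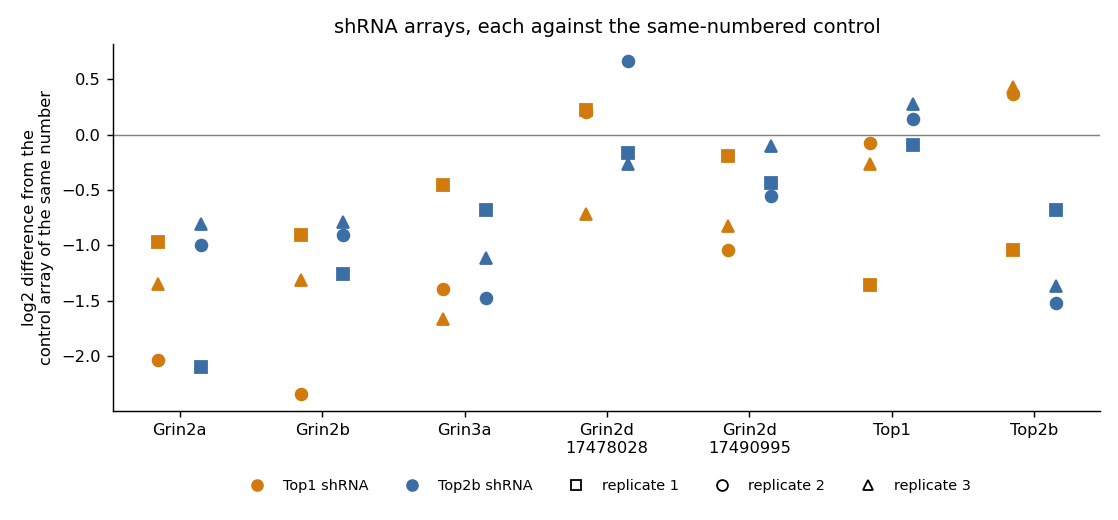
Log2 difference between each shRNA array and the control shRNA array of the same number, for Grin2a, Grin2b, Grin3a, both Grin2d probe sets and the targeted genes Top1 and Top2b. Colours mark the shRNA and symbols the replicate number. The numbers are those of the labels, and replicate 1 was deposited on another level of intensity than replicates 2 and 3. All 6 differences are negative for Grin2a, Grin2b and Grin3a, from -2.34 to -0.46, while Top1 and Top2b differ in sign between arrays.

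RNA of whole cultures was measured, so that fewer cells of a type and less RNA per cell cannot be told apart. In the shRNA arrays summed excitatory and general neuronal markers were lower, beside the lower Grin2a, Grin2b and Grin3a. Summed fibroblast and meningeal markers were higher. The summed intensity of 9 markers of excitatory cortical neurons was 3599 to 3711 in control, 1127 to 1689 with Top1 shRNA and 1726 to 2396 with Top2b shRNA. Of the marker lists, chosen with earlier results known, the sum of 10 fibroblast and meningeal markers, of which Lum was below the limit, was 1669 to 3827 in control, 9420 to 11025 with Top1 shRNA and 6532 to 9416 with Top2b shRNA. All 9 excitatory markers were called lower with Top1 shRNA and 3 with Top2b shRNA, and 7 and 6 of 9 fibroblast markers tested were called higher. General neuronal markers (10) summed to 18783 to 19586 in control. With Top1 shRNA their sum was 9073 to 13704 (5 called lower, 0 higher) and with Top2b shRNA 11772 to 15820 (2 lower, 0 higher). Of 8 interneuron markers tested 5 and 2 were called lower and 0 higher. Of 9 astrocyte markers tested 1 was called lower and 3 higher with Top1 shRNA, and 0 and 2 with Top2b shRNA. The part of these markers in the shRNA results was not tested.

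Under the drugs markers of astrocytes also moved, and those of neurons moved in some comparisons. On the 3' arrays the sum of 10 astrocyte markers was 37820 to 44951 with vehicle and 21425 to 27541 with topotecan at 300 nM (4 of 9 tested called lower), and 32443 to 36135 with vehicle and 24087 to 26769 with ICRF-193 (7 of 9 called lower). With topotecan at 1 µM the sum of 10 astrocyte markers (S100b below the limit) was 3941 to 4381 with vehicle and 2119 to 2414 with drug, and 7 of 9 tested were called lower. The sum of 10 general neuronal markers was 16072 to 20382 and 13290 to 16922, with 7 of 10 called lower and a median change of -0.28. With irinotecan the neuronal sum was 19036 to 19844 and 18380 to 18736, with 1 of 10 called lower and 1 higher. The astrocyte sum there was 2177 to 2627 and 2023 to 2167, with 3 of 9 called lower. The sum of 9 interneuron markers (Vip below the limit) was 3316 to 4793 with vehicle and 1312 to 1974 with topotecan at 1 µM (4 of 8 tested called lower, 1 higher), and 2953 to 3162 and 1560 to 1979 with irinotecan (6 of 8 called lower, 1 higher). On the 3' arrays 0 of 10 general neuronal and 0 of 10 interneuron markers were called with topotecan at 300 nM. With ICRF-193 the general neuronal list had 0 lower and 2 higher, and the interneuron list 2 lower and 3 higher. Of 9 excitatory neuron markers tested, 3 were called lower and 2 higher with topotecan at 1 µM, and 2 and 3 with irinotecan. With topotecan at 300 nM 0 were lower and 1 higher, and with ICRF-193 3 lower and 4 higher. The part of these markers in the fall of the subunit genes was not tested.

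DRB, which blocks elongation by RNA polymerase II, was measured on 1 array. In this DRB array against its single vehicle array Grin3a differed by -1.17 and Grin2d probe set 17490995 by -1.23, whereas Grin2a differed by -0.56 and Grin2b by -0.14. The levels were 6.49 against 7.66 for Grin3a and 10.63 against 10.77 for Grin2b. With 2 of 5 member probe sets past 2-fold lower, 18.3% of all probe sets tested were (6.75% higher), and the median difference of all probe sets was -0.32. Grin2d probe set 17478028 differed by 0.40, opposite to the other Grin2d probe set. The astrocyte marker sum was 1273 with DRB and 4672 with vehicle, and its part in these differences was not tested. There was no replicate of either array and no test.

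For the oxidants the differences of Grin2a and Grin2b depended on which vehicle array was used. Reading the members against each array alone was chosen after seeing the data. Grin2a read 5.99 in oxidant vehicle 1 and 8.33 in vehicle 2, and Grin2b 9.30 and 10.64. With hydrogen peroxide Grin2a read 8.08 and Grin2b 10.32, and with paraquat 8.09 and 10.33, so all 4 values lay between the vehicle arrays. Against the vehicle mean Grin2a differed by 0.92 with hydrogen peroxide and 0.93 with paraquat, against vehicle 2 alone by -0.25 and -0.24, and against vehicle 1 alone by 2.08 and 2.098.

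Grin2b likewise differed by 0.35 and 0.36 from the mean, by -0.33 and -0.31 from vehicle 2 alone and by 1.02 and 1.04 from vehicle 1 alone. Grin3a kept its direction with each vehicle array, -0.58 to -0.33 with hydrogen peroxide and 0.46 to 0.71 with paraquat. Grin2d was higher with paraquat against each vehicle array, by 0.36 to 0.54 for 17478028 and 0.75 to 1.14 for 17490995. With hydrogen peroxide 17490995 differed by 0.29 to 0.68 and 17478028 by -0.09 to 0.08. Past 2-fold against the vehicle mean were 0 of 5 member probe sets for both oxidants, where 1.06% of all probe sets were lower and 1.63% higher with hydrogen peroxide, and 1.76% lower and 3.42% higher with paraquat. In the 2 vehicle arrays the summed excitatory neuron markers were 1837 and 5141 and the summed fibroblast markers 5829 and 17478; their part in these differences was not tested.

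Grin2c and Grin3b stayed dim in these cultures. Grin2c was under the brightness limit on average with each of its probe sets, at a mean of 5.04 on the 3' arrays, 3.66 and 4.39 on the later and 4.57 on the earlier gene-level arrays, and was not tested. Grin3b was tested on the 3' arrays only, at a mean of 6.76 just above the limit of 6.39, and had a mean of 4.26 under the limit on the later arrays. Grin2a could be followed on the gene-level arrays only, since its single probe set on the 3' arrays read 4.39 on average and was under the limit on all 12 arrays.

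The members that fell most are long genes. The annotated span, taken from RefSeq, was 460 kb for Grin2b, 428 kb for Grin2a, 184 kb for Grin3a, 39.3 kb for Grin2d, 18.1 kb for Grin2c and 6.79 kb for Grin3b. With topotecan at 1 µM the median change of all 315 genes over 400 kb was -1.22, that of 1155 genes of 100 to 200 kb was -0.20 and that of 9530 genes of up to 50 kb was 0.04. Within the class over 400 kb only 17 of 315 genes had a lower change than Grin2a and 43 a lower one than Grin2b. Grin3a had a lower change than all but 157 of the 1155 genes of its class.

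With irinotecan 64 of 315 genes of the longest class had a lower change than Grin2a and 66 a lower one than Grin2b, at a class median of -1.20. With topotecan at 300 nM 37 of 262 genes and with ICRF-193 58 of 262 genes had a lower change than Grin2b, at class medians of -1.21 and -0.30. With Top1 shRNA the class median was -0.84, with 47 and 39 of 315 genes lower than Grin2a and Grin2b, and with Top2b shRNA it was -0.46, with 14 and 37 lower. Where tested, Grin2b in all 6 of these comparisons and Grin2a in the 4 on the later arrays, both genes were below the median of their class, as a description with no test.

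**Figure D5:**
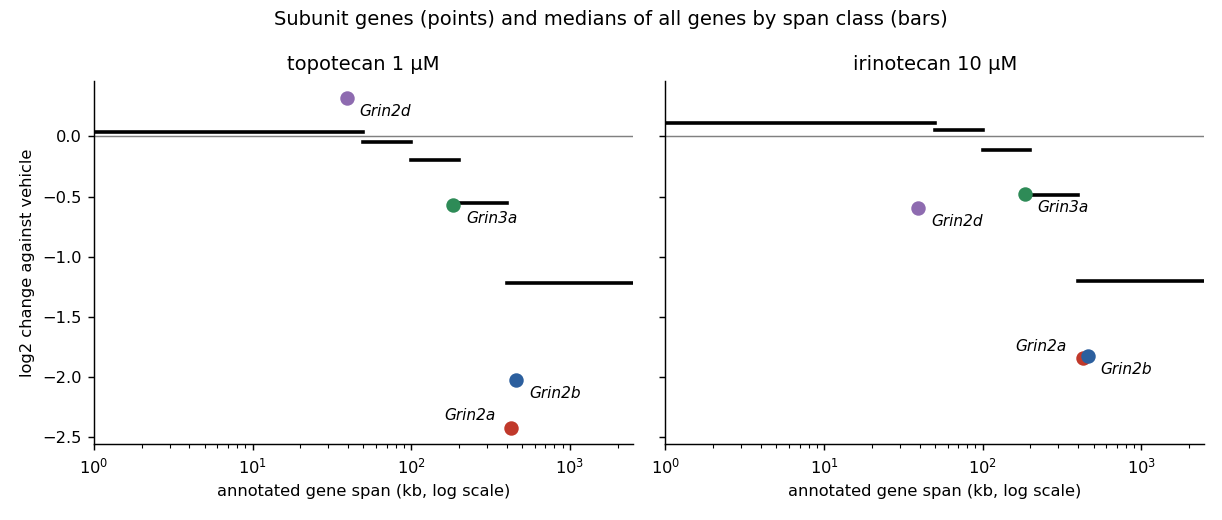
Log2 change with topotecan 1 µM (left) and irinotecan 10 µM (right) against the annotated gene span in kb on a log scale. Points are the member genes (brightest probe set), and horizontal bars are the medians of all genes tested in 5 span classes, drawn over the span of the class. Grin2a and Grin2b lie below the bar of the class over 400 kb, which stands at -1.22 and -1.20, and Grin2d is the only member that is above its class with topotecan and below it with irinotecan.

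The genes most like each member were those with the smallest root mean square distance of their log2 differences over the 9 treatments of the later arrays, among 13512 genes. These treatments share vehicle and control arrays, and the distances are descriptions. The median distance of all genes was 1.44 from Grin2a, 1.36 from Grin2b, 0.784 from Grin3a and 0.541 from Grin2d. For Grin2b they were Xkr4 at 0.135, Cnksr2 at 0.165, Cntnap5a at 0.180, Tafa2 at 0.191 and Ptprd at 0.194, with spans of 223 to 2271 kb. For Grin2a they were Grm5, a metabotropic glutamate receptor, at 0.310, the synaptic vesicle calcium sensor Syt1 at 0.322, the splicing regulator Rbfox1 at 0.339, the postsynaptic scaffold Dlgap1 at 0.340 and the netrin receptor Unc5d at 0.359. Grin2b was the sixth nearest gene to Grin2a at 0.370, and Grin2a the 42nd nearest to Grin2b.

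The nearest genes to Grin3a were Lamp5, a membrane protein of a class of cortical interneurons and other neurons, at 0.187, the sterol synthesis genes Fdft1 and Sqle at 0.211 and 0.229, Ccdc85a at 0.236 and Cdh18 at 0.238, with spans of 16.1 to 929 kb. Grin3a stood at a distance of 1.03 from Grin2b and 1.07 from Grin2a. The 5 nearest genes to Grin2d (probe set 17478028) were Pik3r5, Slc13a5, Fbxo27, Ephb3 and Hjv, at 0.194 to 0.220 and with spans of 4.05 to 65.7 kb.

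Many genes that hold, move or signal from the receptor fell with topotecan at 1 µM. Of 46 genes tested from a list of 59, 32 were called lower and 2 higher, with a median change of -0.52. The median of all genes was -0.01, and 20.3% of probe sets were called lower and 18.6% higher. By span, 93.7% of genes over 400 kb, 79.1% of 200 to 400 kb and 49.2% of 100 to 200 kb were called lower. For 50 to 100 kb it was 24.4%, and for up to 50 kb 10.7%. The partners named here span from 2.67 kb (Lin7b) to 1973 kb (Dlg2), with Dlgap1 at 852 and Dlgap2 at 758 kb. The part of span in these calls was not tested. Of 15 postsynaptic scaffolds 11 were called lower: Dlgap1 by -2.03 ± 0.09 (SE), Dlg2, which binds the tails of the glutamate-binding subunits, by -1.50 ± 0.13, Dlgap2 by -1.19 ± 0.13 and Homer2 by -0.93 ± 0.08 (limma adjusted p at most 8.36e-06). Dlg4, the most studied scaffold of this receptor, changed by -0.21 ± 0.11 (SE) and did not pass (limma adjusted p = 0.123).

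Of 8 transport and anchoring genes 5 were called lower and 0 higher with topotecan at 1 µM. Of all probe sets tested, 20.3% were called lower and 18.6% higher. Among the 5 were Lin7b by -1.21 ± 0.17, Apba1 by -1.16 ± 0.11 and Cask by -1.08 ± 0.05 (SE, limma adjusted p at most 5.88e-05). Of 14 calcium-dependent enzymes and kinases 11 were called lower and 1 higher. Ppp3ca, the catalytic subunit of calcineurin, changed by -1.32 ± 0.08, the neuronal nitric oxide synthase Nos1 by -0.92 ± 0.11 and Camk2a, the calcium-dependent kinase that binds the receptor, by -0.83 ± 0.11 (SE, limma adjusted p at most 3.15e-05). Camk2a is also on the excitatory neuron marker list. Of 9 genes of agonist and co-agonist supply 5 were called lower and 1 higher, led by the glial glutamate transporters Slc1a2 (-1.41 ± 0.11) and Slc1a3 (-1.04 ± 0.06; SE, limma adjusted p at most 3.8e-07), which are also on the astrocyte marker list.

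In the other comparisons fewer of these genes were called, a difference that was not tested. With irinotecan 22 of 46 were called lower and 3 higher, where 11.3% of all probe sets were lower and 15.3% higher; among the lower ones were Dlgap1 (-1.84 ± 0.08), Actn2 (-1.34 ± 0.11), Dlg2 (-1.32 ± 0.09), Dlgap2 (-1.30 ± 0.08) and Ppp3ca (-1.26 ± 0.07; SE, limma adjusted p at most 0.000328). With topotecan at 300 nM 7 of 45 were called lower and 0 higher (3.21% and 1.11% of all probe sets): Dlgap1, Dlg2, Cask, Ppp3ca, Fyn, Slc1a2 and Slc1a3. With ICRF-193 17 of 45 were called lower and 1 higher (8.01% and 5.85% of all probe sets), the largest fall being that of Dlg2 (-0.95 ± 0.05 SE, limma adjusted p = 7.78e-05) and the rise that of the calcium-dependent exchange factor Rasgrf1 (0.73 ± 0.05 SE, limma adjusted p = 0.000178).

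With Top1 shRNA 15 of 46 partners were called lower and 1 higher (14.4% and 13.1% of all probe sets), among them Rasgrf2 (-1.66 ± 0.31), the neuronal glutamate transporter Slc1a1 (-1.59 ± 0.18) and Dlgap1 (-1.55 ± 0.33; SE, limma adjusted p at most 0.00962). With Top2b shRNA 6 of 46 were called lower and 0 higher (6.87% and 7.36% of all probe sets), among them Rasgrf2 (-1.51 ± 0.31), Lin7a (-1.23 ± 0.23), Dlgap2 (-1.21 ± 0.25) and Slc1a1 (-0.73 ± 0.18; SE, limma adjusted p at most 0.0312). In the dose series 7 of 48 partners had a falling slope called and 0 a rising one (2.02% and 1.47% of all probe sets): Dlg2, Dlgap2, Dlgap1, Ppp3ca, Camk2a, Cask and Srr, which encodes the enzyme that makes the co-agonist D-serine.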

How the data were processed

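The 56 arrays, of 3 Affymetrix types, carry RNA from mouse cortical neurons in culture. The deposited intensity of each probe set is on a linear scale, and per the submitters' processing notes it was made with Affymetrix Expression Console and RMA, of which no version is given; the plan had assumed log2 values, so log2 was taken here of the deposited intensity. Groups and replicate numbers came from the sample titles.

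Probe sets with 1 gene symbol in the platform annotation whose mean reached the 40th percentile of their array type were tested with limma 3.58.1 (lmFit, eBayes, two-sided) in R 4.3.3, with Benjamini-Hochberg adjustment over all of them at 0.05. Each comparison used its own arrays, the shRNA groups were fitted together with replicate 1 as a set term, and the dose series was fitted as a slope over the rank of the dose. Exact permutation tests listed every split of the arrays and used numpy 2.4.6 in Python 3.11.15. Single arrays have no test. Gene spans came from RefSeq (GRCm38.p6), and no coordinate of the arrays was used. The members, the gene lists and the marker lists were chosen with earlier results of these data known. All members were named; of the partner lists, up to 4 genes per list and comparison were named, those of the largest absolute change that were called and whose groups did not overlap, with Dlg4 added after its values were seen.

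Same-numbered arrays deviated together (every correlation over 0.1) for ICRF-193 (0.175 to 0.315) for Top2b against control shRNA (0.361 to 0.469) and for Top1 against Top2b shRNA (0.211 to 0.449), with numbers from the titles, and not for the other drugs or for Top1 shRNA against control (0.07 in replicate 2). Alternatives were a stricter percentile of 60 or none, quantile normalization, median centring, 20 added before the logarithm, a trend in eBayes, the brightest probe set per gene, a replicate block, no set term, a slope over log10 dose, and each array left out. Leaving out replicate 1 of all shRNA groups, and each vehicle array of the single treated arrays in turn, was added after seeing the data. The fits were tested on simulated data. The number of arrays limits the precision.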

Additional observations from a re-analysis of the deposited data

Results flagged for a closer look

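In the 6 vehicle arrays of topotecan at 1 µM, replicate 4 lay far below the other 5 for Grin2a (6.96, a gap of 0.629 of the group's range) and for Grin2b (9.48, a gap of 0.729). Chance marks about 1 in 20 groups this way, and 10 groups were examined. Replicate 4 correlated with the other vehicle arrays at 0.974 to 0.982 over all tested probe sets. Without it the changes were -2.54 for Grin2a (limma adjusted p = 2.67e-08) and -2.13 for Grin2b (limma adjusted p = 2.19e-09), so the falls were not smaller without this array.

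The effect on Grin2b differed between topotecan (300 nM) and ICRF-193 (3 µM) by -1.65 for probe set 1442370_at and by -1.81 for 1457003_at, each drug taken against its own vehicle in 1 limma fit of the 12 arrays. With the replicate number as a block neither probe set was called (limma adjusted p = 0.138 and 0.0885).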

How the results depend on the processing

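Apart from leaving out arrays, 100 of 116 alternative values for the counts and pair differences kept their direction and side of the threshold, or, for counts, stayed within 1.5 times. The calls of Grin2a, Grin2b and Grin3a with topotecan at 1 µM held in each of them. With the brightest probe set per gene, which leaves 1 Grin2b probe set, 1 member was called lower with topotecan at 300 nM and 1 for its difference from ICRF-193. With the replicate number as a block, 0 members were called with topotecan at 300 nM (Grin2b adjusted p = 0.0996 and 0.0888, limma), 0 for that difference (0.138 and 0.0885) and 1 with Top2b shRNA, and the pair difference of Grin2a and Grin2b, still -0.39, had an adjusted p of 0.125 by exact permutation; same-numbered arrays deviated together for ICRF-193, Top2b against control shRNA and Top1 against Top2b shRNA, though Top2b shRNA replicate 2 correlated with control replicate 3 (0.408) as with control replicate 2 (0.401). No array set term left 1 call with Top1 and 0 with Top2b shRNA; no filter on dim probe sets and new quantile normalization each left 1 with Top2b shRNA. In the dose series 0 were called over log10 dose, 2 without the 1000 nM array and vehicle 1 and 2, and 2 with these as a set term. With 20 added before the logarithm, DRB had 1 probe set past 2-fold and the Grin2a and Grin2b pair turned to 0.031. Median centring gave 2 past 2-fold with paraquat. The cause of these differences was not tested. Leaving out 1 array gave 1 to 2 calls with topotecan at 300 nM, 1 to 2 for its difference from ICRF-193, 2 to 4 with Top1 shRNA, 0 to 2 with Top2b shRNA, 0 to 1 in the dose series, 0 to 2 probe sets past 2-fold with hydrogen peroxide, 0 to 3 with paraquat, and -0.48 to -0.30 for the Grin2a and Grin2b pair. Dim probe sets near the brightness limit, such as those of Grin2d, bound what these arrays can show.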
